A study of Mus musculus with 13 samples.

Results

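The histone deacetylase genes described here are 10 mouse genes: Hdac1, Hdac2, Hdac3, Hdac4, Hdac5, Hdac7, Hdac9, Hdac10, Hdac11 and Sirt1. They were taken from a deposited table of 240814 genomic regions by gene identifier, 10 of 20689 gene bodies. To these were added the CpG islands that hold a member's transcription start site (TSS) in the table, which 7 members have, of 9153 such islands in all. The remaining regions were 71 elements that overlap a member's body or the 5 kb upstream of it, of 100723 in all. The table calls 25 of them Enh and 46 IS, names the file does not define.

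The regions were measured by chromatin immunoprecipitation and sequencing (ChIP-seq), in which an antibody pulls down chromatin fragments and the reads are counted per region. The antibodies bound histone H3 acetylated on lysine 14 (H3K14ac) or KAT7, also called HBO1, an acetyltransferase that writes this mark. The cells were mouse neural stem and progenitor cells from the cortex and ganglionic eminences at E14.5, grown as neurospheres to passage 5, day 3. Per the labels, the Kat7-intact controls were Kat7+/+ NesCreT/+ and the Kat7-deleted cells were Kat7lox/lox NesCreT/+, so both carried a Cre transgene driven by nestin regulatory sequence. There were 4 intact and 3 deleted H3K14ac libraries, 3 intact and 1 deleted KAT7 libraries, and 2 IgG libraries, 13 in all.

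The values used are 1 merged column per antibody. Which libraries and which Kat7 genotype each column holds is not stated in the labels or the file, so neither the genotypes nor the antibodies and IgG were compared here, and there are no replicates behind any value. A level is given in RPKM, reads scaled to the length of the region and to the read total of the column, with an exact Poisson 95% interval. A ratio of KAT7 to H3K14ac carries an exact binomial 95% interval. Reads are not independent molecules, so both intervals cover counting error only. The antibodies have no common scale, and a ratio above 1 compares scaled reads, not occupancy with acetylation. A region is called KAT7-higher where KAT7 is at least 25% above H3K14ac and the interval of the ratio lies above 1, and KAT7-lower where it is at least 20% below and the interval lies below 1. A level is called high or low by the same folds against the median of its class. Of the cell type markers, the Nes island had 1.52 RPKM of H3K14ac and 1.69 of KAT7, against 0.348 and 0.385 at the island of Rbfox3, a neuronal gene, and 0.454 and 0.377 at that of Mbp, a myelin gene. The Nes body was also high, at 0.851 and 0.850 RPKM, where 5% of all gene bodies lay above 0.478 and 0.497. The other progenitor bodies varied: Fabp7 had 0.504 and 0.594 RPKM, Vim 0.365 and 0.477, and Pax6 0.284 and 0.330. That of Sox2, which shares bases with another gene body, held 0 reads. Median body H3K14ac was 0.365 RPKM for the 5 progenitor genes, 0.371 for neuron, 0.408 for astrocyte and 0.289 for oligodendrocyte markers. It was 0.382 for endothelial and 0.412 for microglia and blood markers. In KAT7 the progenitor median, 0.477, was the highest of these lists. Both genotypes carried a transgene with nestin regulatory sequence, and whether it adds reads at Nes was not tested. The islands of the neural progenitor genes Sox2 and Pax6 had 0.631 and 0.543 RPKM of H3K14ac, the markers of astrocytes, endothelium and microglia have no island at their TSS, and ChIP signal is not expression.

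Histone deacetylases remove acetyl groups from lysines and so oppose acetyltransferases such as KAT7. Class I enzymes (Hdac1, Hdac2, Hdac3) are the nuclear catalytic subunits of corepressor complexes: Hdac1 and Hdac2 work in NuRD, Sin3 and CoREST, and Hdac3 in the NCoR complex. Class IIa enzymes (Hdac4, Hdac5, Hdac7, Hdac9) shuttle between nucleus and cytoplasm and bind MEF2 transcription factors. Hdac10 belongs to class IIb and acts on polyamines, Hdac11 is the sole class IV enzyme, and Sirt1 is a NAD-dependent sirtuin. In neural progenitors Hdac1 and Hdac2 are known for overlapping roles in allowing neuronal differentiation.

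The H3K14ac levels of the members spread further at their start sites than over their bodies, as they did over all genes. Of all TSS islands, 5% lay below 0.202 RPKM and 5% above 0.829, against 0.312 and 0.478 for all bodies. Member islands also hold fewer reads than member bodies and so have a wider counting error. The sequences just upstream of the members' starts differ in base composition. RefSeq promoters (GRCm38.p6) were found for 7 of the 10 members, and 250 bases ending just before the start are shown for 4 of them. Sirt1 had the lowest island levels of the group, Hdac7 has RefSeq starts beside and within an internal island with few H3K14ac reads, Hdac4 has a RefSeq start away from the TSS in the table, and Hdac5 serves as a member with mid-range H3K14ac. Each reads 5′ to 3′ along the gene, on the minus strand of the chromosome. Capitals mark GC boxes, here the letters GGGCGG or their reverse complement CCGCCC. A match is a description of letters, not of a bound site.
Sirt1 (chr10:63339036-63339285): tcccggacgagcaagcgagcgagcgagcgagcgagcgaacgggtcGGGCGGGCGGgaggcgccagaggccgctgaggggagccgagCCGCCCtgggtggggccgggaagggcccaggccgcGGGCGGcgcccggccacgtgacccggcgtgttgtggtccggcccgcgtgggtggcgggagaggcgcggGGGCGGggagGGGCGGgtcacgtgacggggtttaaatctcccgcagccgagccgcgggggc
Hdac5 (chr11:102230173-102230422): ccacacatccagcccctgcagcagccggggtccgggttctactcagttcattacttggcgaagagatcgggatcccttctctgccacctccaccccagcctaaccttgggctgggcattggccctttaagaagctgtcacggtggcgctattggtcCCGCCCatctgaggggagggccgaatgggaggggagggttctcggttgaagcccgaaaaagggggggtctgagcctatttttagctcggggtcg
Hdac4, RefSeq start (chr1:92180342-92180591): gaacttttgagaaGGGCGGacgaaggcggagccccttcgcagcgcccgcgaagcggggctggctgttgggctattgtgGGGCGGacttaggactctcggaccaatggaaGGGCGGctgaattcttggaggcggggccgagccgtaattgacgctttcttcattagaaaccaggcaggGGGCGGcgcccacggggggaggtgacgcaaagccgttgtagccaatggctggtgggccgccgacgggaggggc
Hdac7, table and RefSeq start (chr15:97844503-97844752): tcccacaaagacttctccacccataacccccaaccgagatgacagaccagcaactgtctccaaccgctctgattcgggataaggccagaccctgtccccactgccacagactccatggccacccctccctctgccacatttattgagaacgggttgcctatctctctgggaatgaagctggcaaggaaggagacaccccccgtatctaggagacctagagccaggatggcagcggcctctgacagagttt
Hdac7, RefSeq start beside its internal island (chr15:97831768-97832017): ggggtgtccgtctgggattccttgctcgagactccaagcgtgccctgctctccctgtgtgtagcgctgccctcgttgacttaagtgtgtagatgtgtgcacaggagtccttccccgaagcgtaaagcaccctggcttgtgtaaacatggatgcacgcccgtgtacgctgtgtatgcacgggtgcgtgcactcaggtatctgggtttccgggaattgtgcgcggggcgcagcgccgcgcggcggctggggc

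The Sirt1 stretch was 79.2% G and C, with 39 CpG dinucleotides and 6 GC boxes, a pair of which overlap. The Hdac5 stretch had 60.8% G and C, 12 CpG and 1 GC box. The Hdac4 stretch had 65.2%, 23 CpG and 4 GC boxes. The outer Hdac7 start, which no CpG island covers, had 56.4%, 6 CpG and no GC box, while the stretch before the start beside the internal island had 62.0%, 21 CpG and none. The stretch before the Hdac7 start within that island had 74.0%, 25 CpG and 1 GC box, and the one before the start at position 97814863, which no island covers, had 61.2%, 5 CpG and none. The stretch before the Hdac2 TSS had 68.8%, 27 CpG and 1 GC box. It lies almost wholly inside the RefSeq gene, which begins 247 bases upstream of the TSS in the table. The one within the Hdac7 island lies inside a longer Hdac7 transcript, and neither is printed. Of the printed stretches, that of Hdac4 and the one beside the internal Hdac7 island also lie inside their longer RefSeq genes. Over all 32851 RefSeq promoters of this length, 32.7% held a GC box on either strand, and the medians were 52.4% G and C and 6 CpG.

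Over gene bodies the members lay close together. No IgG level was set against these values, so a body level does not by itself show enrichment over unspecific reads. H3K14ac ranged from 0.334 RPKM at Hdac1 to 0.413 at Hdac11, around a member median of 0.393, against 0.381 over all 15774 gene bodies compared. KAT7 ranged from 0.391 at Hdac3 to 0.446 at Hdac10, with a member median of 0.414 against 0.399. None of the 10 members was called high or low in either antibody, where 4.3% of all bodies were called high and 3.6% low for H3K14ac, and 4.15% high and 2.74% low for KAT7. Of the 45 pairs of members, 13 had H3K14ac intervals that did not overlap and 6 had KAT7 intervals that did not. Such counts depend on read numbers, here 302 to 12255 H3K14ac reads per body. No share over pairs of all bodies was computed, so they describe no trait of the members.

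No member's body was called KAT7-higher or KAT7-lower either, where 6.36% of all bodies were called higher and 1.07% lower. These calls lean to the higher side, 85.6% of them, under the deposited read totals, and 62.0% of them when the KAT7 column is rescaled to a median gene-body ratio of 1. The member ratios had a median of 1.11, against 1.05 over all bodies, of which 5% fell below 0.867 and 5% above 1.29. Under a looser rule added after the data were seen, an interval that leaves out 1 at any fold, 6 members were higher (Hdac1, Hdac2, Hdac5, Hdac7, Hdac9 and Sirt1) and 0 lower, against 34.2% and 9.06% of all bodies. With the KAT7 column rescaled, the intervals of Hdac2, Hdac5 and Hdac9 included 1 and the Hdac9 ratio was 0.997.

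**Figure D1:**
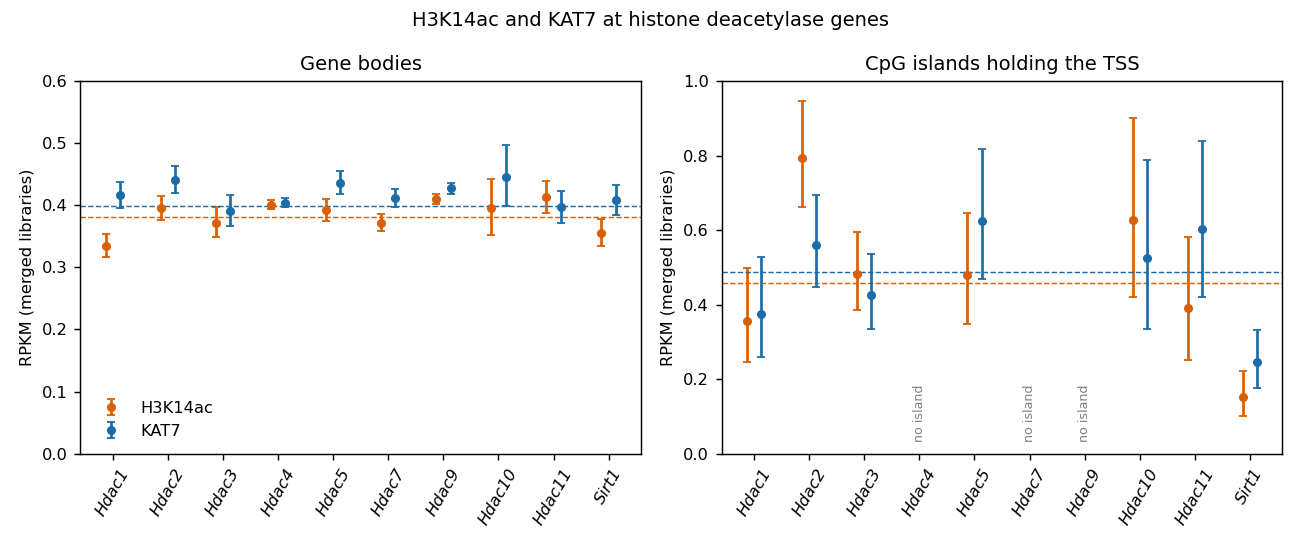
RPKM of H3K14ac (orange) and KAT7 (blue) for each gene, over the gene body (left) and at the CpG island holding the TSS (right), in merged libraries; bars are exact Poisson 95% intervals and dashed lines the medians of all gene bodies or islands. Bodies lie between 0.334 and 0.446 RPKM, while islands reach from 0.152 at Sirt1 to 0.794 at Hdac2. Islands spread further than bodies over all genes too.

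Among the class I genes, Hdac1 and Hdac2, paralogs that share complexes, differed from each other over their bodies. Hdac1 (chr4:129516104-129542646, minus strand) held 1258 H3K14ac reads, 0.334 RPKM (0.316 to 0.353), the 12.2nd percentile of gene bodies, and 1482 KAT7 reads, 0.416 RPKM (0.395 to 0.438). Its ratio of 1.245 (1.154 to 1.343), at the 92.1st percentile, was the highest of the 10 and lay just under the limit of 25%. Hdac2 (chr10:36974544-37001888, plus strand) held 1532 H3K14ac reads, 0.395 RPKM (0.376 to 0.416), and 1618 KAT7 reads, 0.441 RPKM (0.420 to 0.463), with a ratio of 1.12 (1.04 to 1.20). The H3K14ac intervals of Hdac1 and Hdac2 did not overlap, and their KAT7 intervals did.

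Hdac3 (chr18:37936971-37954988, minus strand), the catalytic subunit of the NCoR complex, had 950 H3K14ac reads, 0.372 RPKM (0.349 to 0.396), and 945 KAT7 reads, 0.391 RPKM (0.367 to 0.417), both near the 40th percentile at 40.2 and 40.6. The table places Hdac2 and Hdac3 in its Top expression class and the other 8 members in neither the Top nor the Bottom class. Top-class bodies (790) had a median ratio of 1.13 and Bottom-class bodies (876) one of 0.974, beside 1.12 for Hdac2 and 1.05 for Hdac3.

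At the start sites the class I genes spread further, as genes in general did. The Hdac2 island (chr10:36974139-36975258) held 126 H3K14ac and 84 KAT7 reads. Its H3K14ac level of 0.794 RPKM (0.662 to 0.946) was at the 93.7th percentile of 8899 islands holding a TSS, and its KAT7 level of 0.560 (0.446 to 0.693) at the 68.8th. Its ratio was 0.705 (0.528 to 0.936), the only member island called KAT7-lower of 7, with 0 called higher. The shares over all islands were 8.14% lower and 14.7% higher, a split of 64.3% to the higher side that became 53.5% with the KAT7 column rescaled.

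A pair of IS elements lie at the Hdac2 start. One (chr10:36974691-36975104) held 48 H3K14ac and 47 KAT7 reads, 0.820 and 0.849 RPKM, a ratio of 1.03 (0.677 to 1.58), and the other (chr10:36974172-36974641) held 41 and 25, a ratio of 0.644 (0.376 to 1.09). Their intervals overlap each other and that of the island. The Enh element that covers the island (chr10:36974038-36975726) held 169 and 117 reads, a ratio of 0.732 (0.573 to 0.932). These elements share reads with the island and are no separate evidence. In the window of 2001 bases before the TSS the reads were 116 and 118.

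The Hdac1 island (chr4:129542297-129542952) held 33 reads of each antibody, 0.355 RPKM of H3K14ac (0.245 to 0.499) and 0.376 of KAT7 (0.259 to 0.528), at the 27.2nd and 19.1st percentiles. H3K14ac at the Hdac2 island was therefore above that at the Hdac1 island by more than counting error, while their KAT7 intervals overlapped. The Hdac3 island (chr18:37954879-37956138) also holds the TSS of Rell2, so its reads cannot be given to 1 gene. It held 86 and 72 reads, 0.482 and 0.426 RPKM, with a ratio of 0.885 (0.638 to 1.22).

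**Figure D2:**
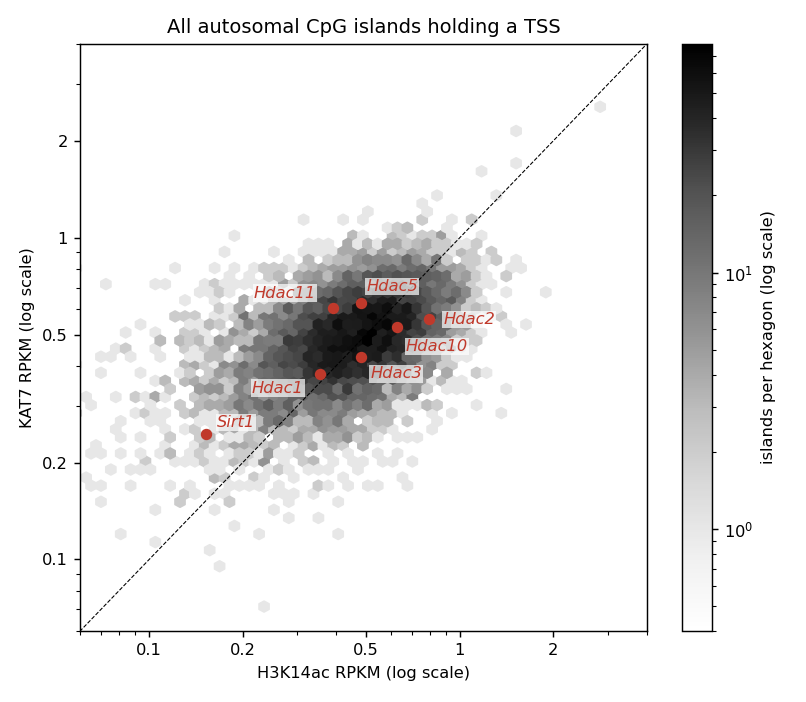
KAT7 against H3K14ac, in RPKM on log axes, for all autosomal CpG islands that hold a TSS (grey hexagons, darker with more islands) and for the 7 members' islands (red points); the dashed line marks equal RPKM. Sirt1 lies toward the low side of the cloud, at the 2.12th percentile of H3K14ac and the 2.52nd of KAT7. Hdac2 lies toward the high side in H3K14ac, at the 93.7th percentile.

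The class IIa genes differ in whether the table gives them an island at the TSS at all: Hdac5 has one, and Hdac4, Hdac7 and Hdac9 do not. Their bodies are the longest among the members, which makes their body levels the most precise. Hdac4 (chr1:91932734-92148393, minus strand) held 12255 H3K14ac and 11682 KAT7 reads, 0.401 RPKM (0.394 to 0.408) and 0.404 (0.397 to 0.411), a ratio of 1.01 (0.982 to 1.03). Hdac9 (chr12:34371497-34528889, minus strand) held 9140 and 9016 reads, 0.410 RPKM (0.401 to 0.418) and 0.427 (0.418 to 0.436), a ratio of 1.04 (1.01 to 1.07).

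Hdac5 (chr11:102195747-102230172, minus strand), which represses MEF2 targets in its unphosphorylated nuclear form, held 1913 and 2014 reads over its body, 0.392 and 0.436 RPKM, a ratio of 1.11 (1.04 to 1.19). Its island (chr11:102229651-102230283) held 43 H3K14ac and 53 KAT7 reads, 0.480 RPKM (0.347 to 0.647) and 0.625 (0.468 to 0.818). The KAT7 level was the highest among the 7 member islands, at the 82.1st percentile, and the H3K14ac level stood at the 54.4th. A second island 5286 bases downstream (chr11:102224734-102225039) held 30 and 16 reads, a ratio of 0.564 (0.287 to 1.07), against 1.30 (0.855 to 1.995) at the first. The intervals of these islands overlap.

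Hdac7 (chr15:97792664-97844502, minus strand), a class IIa gene known from endothelium and thymus, held 2731 and 2860 reads over its body, 0.372 RPKM (0.358 to 0.386) and 0.411 (0.396 to 0.427), a ratio of 1.11 (1.05 to 1.17). The body shares 29 bases with that of Slc48a1, the only overlap of a member with another gene body. At the TSS in the table an IS element held 10 and 6 reads. The gene's other RefSeq starts lie inside it, 1 of them at position 97831495, which is 13007 bases downstream of the TSS in the table and within a CpG island of 752 bases (chr15:97830984-97831735).

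That internal Hdac7 island held 10 H3K14ac reads and 67 KAT7 reads. The levels were 0.0939 RPKM of H3K14ac (0.0451 to 0.173) and 0.665 of KAT7 (0.516 to 0.845), a ratio of 7.08 (3.62 to 15.4). The table classes the island as far from a TSS, so it is no TSS island of Hdac7 in the counts here, and it was singled out after its values were seen. Among the 2639 islands of that class, 7 had a ratio as high, itself included, and 12.8% were called KAT7-higher. Its H3K14ac level was at the 0.682nd percentile of the class and its KAT7 level at the 83.9th, around class medians of 0.437 and 0.480. The Enh element around it (chr15:97830531-97832498) held 71 and 142 reads, a ratio of 2.11 (1.58 to 2.85), and without the island's reads 61 and 75, a ratio of 1.30 (0.914 to 1.85). The body of Hdac7 without the island had a ratio of 1.08 (1.03 to 1.14).

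**Figure D3:**
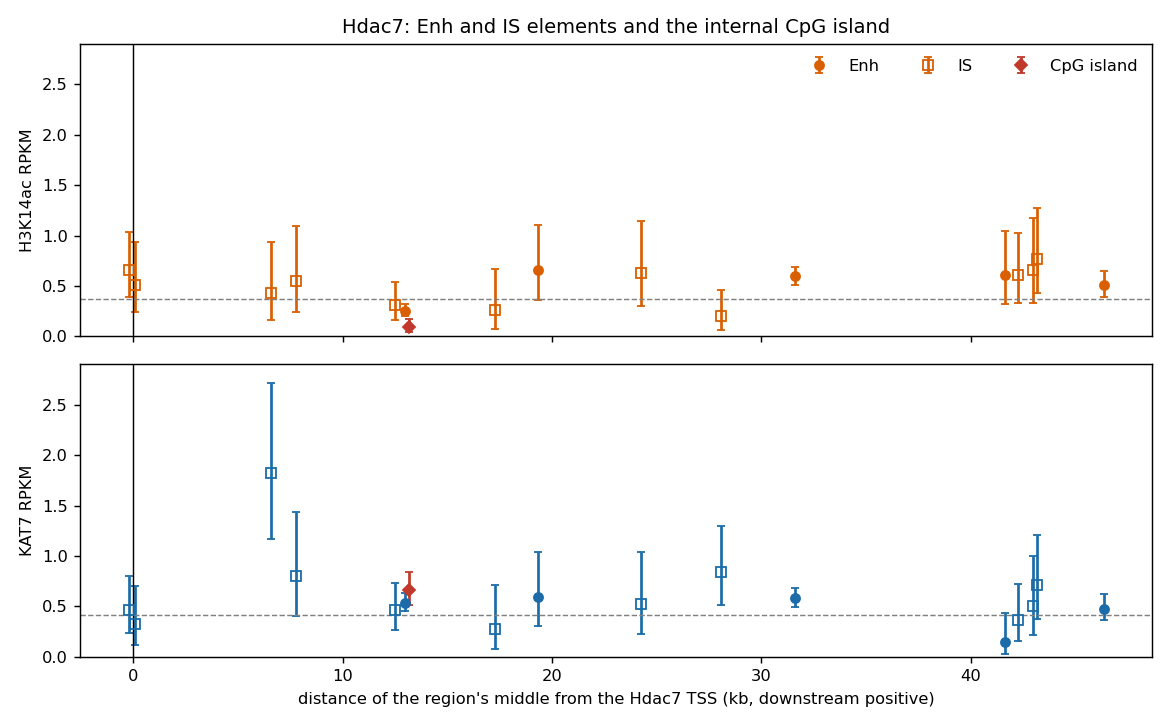
H3K14ac (top) and KAT7 (bottom) RPKM of each Enh element (filled circles), IS element (open squares) and the internal CpG island (red diamond) of Hdac7, by distance of the middle from the TSS in kb; bars are exact Poisson 95% intervals and the dashed line is the gene body. The red diamond is at 0.0939 RPKM in the top panel and 0.665 in the bottom one.

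Hdac4, which in neurons and muscle links calcium signalling to MEF2 targets, has its RefSeq promoter 31948 bases upstream of the TSS in the table, and the RefSeq gene extends 47309 bases beyond it. The island at that promoter (chr1:92179620-92181074), also classed as far from a TSS, held 24 H3K14ac and 36 KAT7 reads. The levels of 0.116 RPKM (0.0746 to 0.173) and 0.185 (0.129 to 0.256) were at the 1.17th and 0.872nd percentiles of the class. Both antibodies were low there, whereas at the internal Hdac7 island only H3K14ac was. An IS element within this island (chr1:92180161-92180367) held 0 reads of either antibody. Hdac9, whose RefSeq gene starts 388206 bases upstream of the TSS in the table, had an Enh element over that TSS (chr12:34527961-34529593) with 88 and 87 reads, 0.380 and 0.397 RPKM, close to its body.

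Hdac10 is the smallest member gene (chr15:89123303-89128700, minus strand), with 302 H3K14ac and 323 KAT7 reads over its body, 0.395 RPKM (0.352 to 0.442) and 0.446 (0.399 to 0.498), a ratio of 1.13 (0.963 to 1.33). Its island (chr15:89128456-89128782) held 29 and 23 reads, 0.628 RPKM (0.420 to 0.901) and 0.526 (0.333 to 0.789). A second island over its 3′ end (chr15:89122928-89123448) held 35 and 27 reads, a ratio of 0.815 (0.475 to 1.39) beside 0.838 (0.463 to 1.5004) at the start. At both ends of this gene the ratio was below 1, with intervals that include it.

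Hdac11 (chr6:91156815-91174683, plus strand), a deacylase of long fatty acyl groups, was the only member with a body ratio below 1: 1045 and 951 reads, 0.413 RPKM (0.388 to 0.438) and 0.397 (0.372 to 0.423), a ratio of 0.962 (0.880 to 1.05). Its island (chr6:91156622-91157055) had the opposite order, 24 H3K14ac and 35 KAT7 reads, 0.391 RPKM (0.251 to 0.582) and 0.603 (0.420 to 0.838). The island ratio of 1.54 (0.891 to 2.71) includes 1. The Enh element around the start (chr6:91156140-91158274), with more reads, held 119 and 145, a ratio of 1.29 (1.004 to 1.66).

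Sirt1 (chr10:63319005-63339035, minus strand), whose enzyme deacetylates histones and factors such as p53, stood apart at its start. Its body held 1010 and 1096 reads, 0.356 RPKM (0.334 to 0.378) and 0.408 (0.384 to 0.433), a ratio of 1.15 (1.05 to 1.2504). Its island (chr10:63338175-63339425, 1251 bases) held only 27 H3K14ac and 41 KAT7 reads. The levels were 0.152 RPKM (0.1004 to 0.222) and 0.245 (0.176 to 0.332), at the 2.12th and 2.52nd percentiles of all islands. Sirt1 was the only member called low, in both antibodies, and Hdac2 in H3K14ac the only one called high. Over all islands, 21.9% were called high and 20.6% low for H3K14ac, and 14.6% high and 13.4% low for KAT7.

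The Sirt1 promoter was also among the richest in G and C of all promoters, and island levels moved with that measure. Whether the deposited reads were adjusted for G and C content is not known. Only islands with a RefSeq promoter at the TSS in the table could be grouped, which leaves out Hdac1, Hdac3 and Hdac10. They formed 5 groups of 1022 to 1093 islands, of 8899 in all, by the G and C share of the promoter. The median H3K14ac level went from 0.509 RPKM in the lowest group to 0.416 in the highest, and that of KAT7 from 0.529 to 0.454. Among the 1022 islands of the highest group, the Sirt1 island was at the 4.70th percentile for H3K14ac and the 5.28th for KAT7. Hdac2, in the fourth group, kept the 93.9th percentile for H3K14ac and had the 74.0th for KAT7.

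In order of H3K14ac the islands ran Hdac2, Hdac10, Hdac3, Hdac5, Hdac11, Hdac1 and Sirt1. Between neighbours in that order, only the intervals of Hdac1 and Sirt1 did not overlap. For KAT7 the order was Hdac5, Hdac11, Hdac2, Hdac10, Hdac3, Hdac1 and Sirt1, and all neighbours overlapped. Of 21 pairs, the intervals lay apart in 10 for H3K14ac, in 5 for KAT7 and in 1 for the ratio. No share over pairs of all islands was computed, so these counts describe no trait of the members.

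A comparison of each island with its own gene body does not depend on the read totals. Over all 7918 genes compared, the median island was 1.21 times its body in H3K14ac and 1.18 times in KAT7. In H3K14ac, 3 of 7 members were called higher at the island: Hdac2 at 2.01 times (1.66 to 2.41), Hdac10 at 1.59 (1.05 to 2.33) and Hdac3 at 1.30 (1.03 to 1.62). The Hdac3 island is shared with the start of Rell2, so that value cannot be given to Hdac3 alone. In KAT7 another 3 were: Hdac11 at 1.52 (1.05 to 2.13), Hdac5 at 1.43 (1.07 to 1.88) and again Hdac2, at 1.27 (1.01 to 1.58). Sirt1 alone was called lower at its island, at 0.428 (0.281 to 0.627) in H3K14ac and 0.599 (0.428 to 0.819) in KAT7. Over all genes the calls were 36.1% higher and 9.28% lower for H3K14ac and 28.4% higher and 4.21% lower for KAT7. For Hdac1 the values were 1.06 and 0.902, with intervals that include 1.

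Single Enh and IS elements are short and hold few reads, and 17 of the 46 IS elements overlap an Enh element, so those reads are counted in both. The 71 elements had a median of 0.526 RPKM in H3K14ac and 0.538 in KAT7, against 0.493 and 0.512 over 98398 elements. The calls were 6 KAT7-higher and 3 KAT7-lower, where 6.51% of all elements were called higher and 4.15% lower. Those overall calls fell 61.1% to the higher side, and 49.9% with the KAT7 column rescaled.

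Hdac7 held 3 of the 6 higher elements. Besides the Enh element at its internal island, an IS element 6574 bases downstream of the TSS (chr15:97837879-97837977) held 6 H3K14ac and 24 KAT7 reads, a ratio of 4.23 (1.68 to 12.6). Its KAT7 level of 1.83 RPKM (1.17 to 2.72) was the highest value of any member element. A second IS element (chr15:97816350-97816527) held 5 and 20 reads, a ratio of 4.23 (1.54 to 14.4). Hdac7 also held a KAT7-lower element, an Enh entry (chr15:97802780-97802930) with 13 and 3 reads and a ratio of 0.244 (0.0446 to 0.888).

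The other higher elements lay at the starts of Sirt1 and Hdac11. An IS element over the Sirt1 TSS (chr10:63338907-63339153) held 0 H3K14ac reads and 15 KAT7 reads, so KAT7 was at least 5.28-fold higher there when H3K14ac is set to a floor of 3 reads. The exact interval of the ratio itself begins at 3.79. The Enh element that contains it (chr10:63338154-63339371) held 23 and 41 reads, a ratio of 1.88 (1.10 to 3.29). Apart from the Hdac2 Enh element, the remaining lower one was an IS element in Hdac4 (chr1:92126756-92126897) with 16 and 4 reads, a ratio of 0.264 (0.0643 to 0.819).

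**Figure D4:**
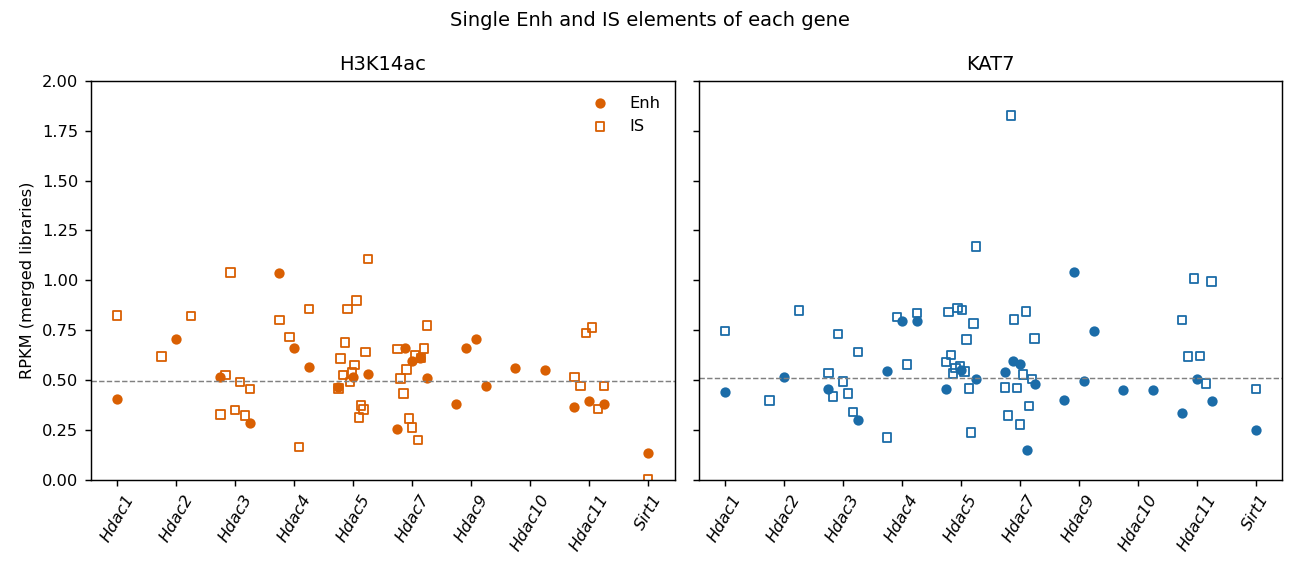
RPKM of every Enh element (filled circles) and IS element (open squares) of each gene, H3K14ac on the left and KAT7 on the right, spread sideways within a gene by position; the dashed line is the median of all elements. Most points lie near the medians of 0.493 and 0.512, and the highest is the Hdac7 IS element at 1.83 RPKM of KAT7.

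The highest elements of the other genes carried both antibodies or 1 of them. In Hdac5 an IS element near the 3′ end (chr11:102195973-102196075) had 16 reads of each, 1.11 and 1.17 RPKM. The table classes it as near a TSS, though it lies 34148 bases from that of Hdac5. In Hdac3 an IS element upstream of the TSS (chr18:37955427-37955590), within the island shared with Rell2, had 24 and 16 reads, 1.04 and 0.732 RPKM. An Enh element in Hdac4 (chr1:92130580-92130730) had 22 and 11 reads, 1.03 and 0.547 RPKM. In Hdac9 an Enh element (chr12:34498820-34498970) had the reverse order, 14 and 21 reads, 0.659 and 1.04 RPKM, and in Hdac11 an IS element had 20 and 26 reads, 0.735 and 1.01 RPKM. Other Enh elements led in KAT7 in Hdac4 (chr1:92070100-92070250), with 12 and 16 reads, and in H3K14ac in Hdac9 (chr12:34498440-34498590), with 15 and 10, and in Hdac7 (chr15:97811871-97813876), with 169 and 156. Both antibodies were highest in 1 IS element of Hdac1 (chr4:129542392-129542512), with 14 and 12 reads, and in 1 Enh element over the 3′ end of Hdac10 (chr15:89122620-89123963), with 105 and 81. None of these elements had a ratio interval that left out 1.

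Summed per gene, the elements gave 1 member called KAT7-higher, Sirt1, and 1 called KAT7-lower, Hdac2. Over 12562 genes with an element, 13.6% were called higher and 6.07% lower, with a median ratio of 1.05. The 2 Sirt1 elements held 23 and 56 reads, a ratio of 2.57 (1.56 to 4.38), where the 15 KAT7 reads of the overlap were counted in both elements. Both lie at the Sirt1 island, which was not called by its ratio, and the Enh element alone gave 1.88 (1.10 to 3.29). The 3 Hdac2 elements held 258 and 189 reads, a ratio of 0.774 (0.638 to 0.938). Hdac7, with 16 elements, had 442 and 499 reads and a ratio of 1.19 (1.05 to 1.36), and Hdac11, with 9, had 379 and 415 and a ratio of 1.16 (1.004 to 1.33). In Hdac2, Hdac7 and Hdac11 too, IS elements overlap Enh elements, so shared reads count in both and the intervals are too narrow. The Enh elements alone gave 0.732 (0.573 to 0.932) for Hdac2, 1.18 (1.02 to 1.38) for Hdac7 and 1.09 (0.928 to 1.29) for Hdac11. The other 6 genes had ratios from 0.807 at Hdac10 (0.644 to 1.01) to 1.11 at Hdac9 (0.861 to 1.42), with intervals that include 1. Of the 186 and 142 reads of Hdac10, 105 and 81 lie in the Enh element over its 3′ end. Elements were given to a gene by overlap alone, whichever gene's start they lie near.

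**Figure D5:**
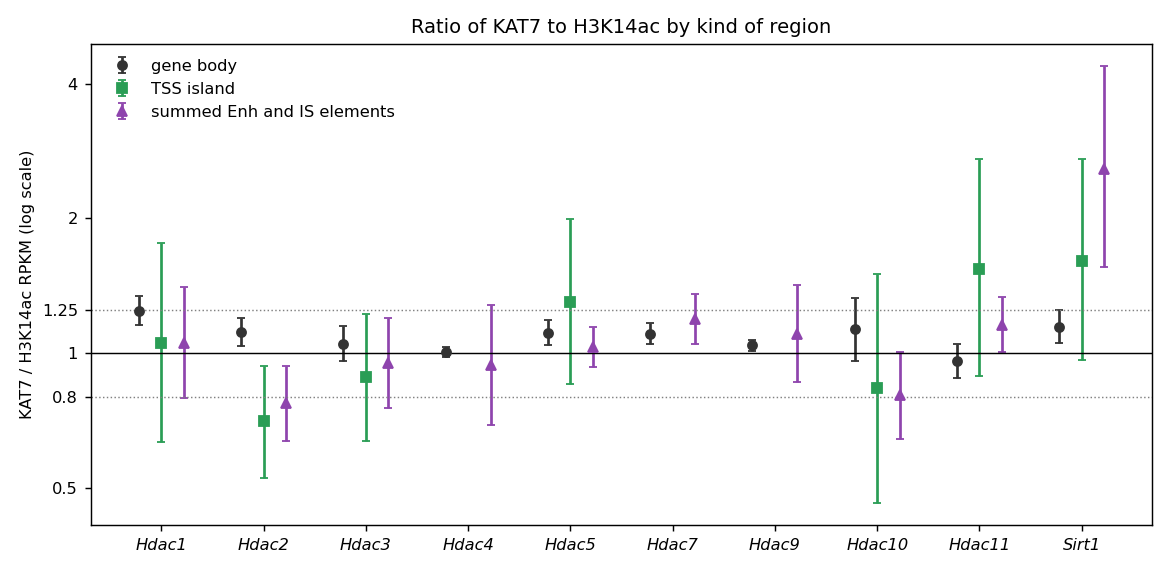
Ratio of KAT7 to H3K14ac RPKM for each gene on a log axis, over the gene body (circles), the TSS island (squares) and the summed Enh and IS elements (triangles); bars are exact binomial 95% intervals, the solid line marks 1 and the dotted lines the limits of the call rule. Hdac2 lies below 1 at its island and elements and above 1 over its body, and Sirt1 has its highest ratio, 2.57, in its elements. The sums count reads of overlapping elements in each of them.

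Of the other deacetylase genes, 6 of 8 have a TSS island and none was called in either direction by the ratio. The median ratio of these islands was 1.15, against 1.06 over all TSS islands, from 1.06 at Sirt3 and Sirt6 to 1.255 (0.611 to 2.61) at Sirt5, the mitochondrial desuccinylase. The Sirt2 island, of a mainly cytoplasmic tubulin deacetylase, had 20 and 22 reads, 0.205 and 0.239 RPKM, below the medians of 0.458 and 0.487 over all TSS islands. Hdac6, another tubulin deacetylase, lies on chromosome X and had 12 and 13 reads at its island. Its body was low in both antibodies, 0.157 and 0.162 RPKM, as was that of Hdac8, also on X, at 0.206 and 0.214. The autosomal body medians were 0.381 and 0.399, and a part of X copy number in this was not tested.

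The partners of the class I enzymes showed calls in both directions, as TSS islands in general did, of which 14.7% were called higher and 8.14% lower. Of 8 NuRD islands measured, 1 was called higher, that of the histone-binding subunit Rbbp7 on chromosome X at 1.54 (1.01 to 2.38), and 1 lower, that of Mta2 at 0.721 (0.542 to 0.956). The lowest NuRD ratio was at Mbd2, a methyl-CpG reader, at 0.656 (0.343 to 1.22), and the median was 0.984. Of 10 Sin3 islands, 3 were called higher: Sap18 at 2.19 (1.37 to 3.57), Arid4b at 1.94 (1.48 to 2.56) and Sap30 at 1.42 (1.04 to 1.96). The paralog Arid4a was the 1 called lower, at 0.673 (0.501 to 0.900), and the Sin3 median was 1.02. The Arid4a island had 124 and 79 reads and the Arid4b island 85 and 156, so these paralogs lay on opposite sides of 1 with intervals apart.

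In the NCoR complex, the highest island ratio was that of Tbl1xr1, an exchange factor of the complex, at 1.27 (0.923 to 1.75), with an interval that includes 1. None of 3 CoREST islands was called. They ran from Rcor3 at 0.927 (0.702 to 1.22) to Kdm1a, the H3K4 demethylase, at 1.37 (0.935 to 2.01), with a median of 1.29. Of the MEF2 genes bound by class IIa enzymes, the Mef2d island was called lower, with 120 H3K14ac and 52 KAT7 reads, 1.05 and 0.482 RPKM, a ratio of 0.458 (0.324 to 0.639). The Mef2a island was at 0.793 (0.599 to 1.05), and Mef2c has no island at its TSS in the table.

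Over gene bodies, 5 of 34 partner genes were called KAT7-higher and 0 lower, where 6.36% of all bodies were called higher and 1.07% lower. They were Chd3, Chd4 and Gatad2b of the 11 NuRD genes, Sap18 of the 11 Sin3 genes and Gps2 of the NCoR complex. The ATP-dependent remodellers Chd3 and Chd4 were at 1.253 (1.16 to 1.36) and 1.26 (1.18 to 1.34), and Gatad2b was at 1.31 (1.19 to 1.44). Sap18 was at 1.37 (1.18 to 1.58), on the same side as its island, and Gps2 at 1.37 (1.10 to 1.73). Under either rescaling of the KAT7 column Chd3 and Chd4 were no longer called, and Gatad2b, Sap18 and Gps2 were. No CoREST, MEF2 or other deacetylase gene was called over its body.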

How the data were processed

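ChIP-seq libraries of H3K14ac, KAT7 and IgG are labelled, and the authors deposited 1 table with 1 merged H3K14ac and 1 merged KAT7 column. Per the file headers each column has a read count and an RPKM value per region. The column names carry the label SC.gc, which is not defined, and any adjustment of reads for G and C content is not stated. Per the submitters' processing notes reads were handled with Bowtie2, Picard, SAMtools, featureCounts and deepTools on build mm10; their versions and roles are not stated there. Each deposited RPKM equals the count over end minus start and over 1 read total, 141734087 for H3K14ac and 134111848 for KAT7, in 100% of regions within a relative tolerance of 1e-06.

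The members and gene lists were chosen with earlier results of these data known. All 10 members were named, with the element highest in each antibody, by lower Poisson bound, per gene; of each list the highest and lowest island ratios were named, and other genes where called. For the NCoR complex, part of these results is not reported here. With merged values alone, tests over libraries could not be run and no p-value is given. Background regions were autosomal, shared no bases with another region of their class, had at most 5 RPKM in either column and a mean of at least 0.1. Gene bodies are counted with the reads of the islands and elements inside them. On the minus strand, 10290 promoter windows have a negative length, so promoter windows were used for plus-strand genes alone. Symbols were matched through RefSeq for 96.7% of gene bodies. Python 3.11.15, pandas 2.3.3, numpy 2.4.6, scipy 1.17.1 and matplotlib 3.10.9 were used, and the counting code was tested on simulated data. Alternatives were other scalings of the KAT7 column, other folds and filters, other upstream limits and element lengths, and bodies without overlapping reads.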

Additional observations from a re-analysis of the deposited data

How the results depend on the processing

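No paired analysis was possible because the table holds 1 merged column per antibody and no replicates. The counts of members called, all of them small, kept within 1.5 times their value in 60 of 66 recomputations over bodies, islands, summed elements, levels and islands against bodies. Some of the 66 could not change a count. Dropping the minimum RPKM alters the background alone and not a ratio call, and a limit of 1 kb keeps every island that holds a TSS. Among the counts that did move, gene bodies called KAT7-higher went from 0 to 2 (Hdac1 and Hdac10, the latter at 1.27) without the reads of overlapping islands and elements. With a fold of 1.5, the islands and the summed elements called KAT7-lower both went from 1 to 0, which is Hdac2 in each case. With the KAT7 column multiplied by 0.956, to a median gene-body ratio of 1, summed elements called lower went from 1 to 2, adding Hdac10 at 0.771, and the Hdac9 body went from 1.04 to 0.997. With IS elements alone, summed elements called higher went from 1 to 2, adding Hdac11 at 1.39, and those called lower from 1 to 0. Single elements called higher went from 6 to 5, without the Hdac11 element, under both scalings and the fold of 1.5, and the 3 called lower to 2, without that of Hdac2, at the fold of 1.5. Partner gene bodies called higher went from 5 to 3 under both scalings (the second multiplies KAT7 by 0.992) and to 0 at the fold of 1.5. With KAT7 multiplied by 0.956, NuRD islands called higher went from 1 to 0 and Sin3 islands from 3 to 2. At the fold of 1.5, Sin3 islands called higher also went to 2, and the 1 NuRD and the 1 Sin3 island called lower to 0. The internal Hdac7 island was not recomputed. The choices of Enh alone, IS alone and any fold with an interval off 1, and the recomputations of single elements and partner genes, were added after seeing the data. The member islands hold 24 to 126 H3K14ac reads each, and the ratio interval included 1 at 6 of 7 of them.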

Other observations

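The windows of 2001 bases after the transcription end could be read for the plus-strand genes. That of Hdac2 held 96 H3K14ac and 122 KAT7 reads, a ratio of 1.34 (1.02 to 1.77), above 1 as its body was and unlike its island at 0.705. That of Hdac11 held 137 and 118 reads, a ratio of 0.910 (0.706 to 1.17). In the promoter window of Hdac11 the reads were 109 and 116.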
